A study of Mus musculus with 11 samples.

Results

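The 9 genes Sox1, Sox3, Sox11, Sox21, Pax6, Nes, Neurog2, Olig2 and Irx3, all known for expression in the neural plate, were examined for binding of 5 transcription factors (TFs) in mouse epiblast stem cells (EpiSCs). A peak was assigned to a gene when its midpoint lay in the gene or within 50 kb on either side, in coordinates of the mm9 build. This rule used position alone and gave 497 of the 1004445 peaks in 10 lists, at 9 of 22368 protein-coding genes. The TFs were POU3F1, POU5F1, SOX2, OTX2 and ZIC2, and each ChIP-seq library was made in cells transiently transfected with a pCAGGS plasmid for the TF, carrying the BLRP biotin acceptor peptide, and for the biotin ligase BirA. Chromatin of formalin-fixed cells was pulled down with streptavidin, so the lists describe binding of exogenous, tagged TFs. All cells were of strain 129/Sv and feeder-free. The EpiSC libraries came from cells kept with activin at 20 ng/ml and Fgf2 at 10 ng/ml, and the activin-free libraries (EpiSCA) from cells deprived of activin for 18 hr before they were harvested. Each TF had 1 library per culture. No value therefore has a replicate error, no test between cultures was possible, and intervals (95%, exact Poisson for counts and Wilson for shares) cover counting error only. The lists held between 62457 and 126908 peaks, with lowest scores of 50 or 50.01. The score is the one MACS derives from the logarithm of a p-value, and 3100 is a value that many peaks share at the top of the lists. Read depth is unknown, and expression was not measured in these files, so the neural plate label of the genes could not be checked here. Binding in fewer cells and weaker binding per cell cannot be told apart. Each of the 10 lists had a peak of score 3100 at the gene of its own TF, whose coding sequence the expression plasmid carries too. Many peaks share this score, and the other lists were not compared at these genes, so this does not check the labels.

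EpiSCs derive from the epiblast after implantation, whose cells can still become neural plate, mesoderm or endoderm. Activin signalling holds them in that state, and its loss favours neural development. SOX2 binds DNA together with partner TFs, often of the POU class, at enhancers of both pluripotent and neural cells. Among the genes examined, Sox1 and Sox3 encode TFs of the same SOXB1 group as SOX2, Sox21 a SOXB2 repressor and Sox11 a SOXC protein of immature neurons. Pax6, Irx3 and Olig2 encode TFs that pattern the neural tube, Neurog2 is a proneural gene, and Nes encodes nestin, an intermediate filament protein of neural progenitors.

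On mm9, Sox3 (ENSMUSG00000045179.7) occupied chrX:58144545-58146605 on the minus strand, Sox11 (ENSMUSG00000063632.5) chr12:28025562-28027574 on the minus strand, and Sox21 (ENSMUSG00000061517.6) chr14:118632454-118636252 on the minus strand. Pax6 (ENSMUSG00000027168.12) was at chr2:105509053-105543317 on the plus strand, Irx3 (ENSMUSG00000031734.8) at chr8:94322428-94325553 on the minus strand and Olig2 (ENSMUSG00000039830.8) at chr16:91225795-91228922 on the plus strand. Neurog2 (ENSMUSG00000027967.7) lay at chr3:127336054-127338549 and Nes (ENSMUSG00000004891.10) at chr3:87775000-87784373, both on the plus strand. Sox1 was placed at chr8:12395519-12399555 on the plus strand by an exact match of its RefSeq promoter, inside the annotated gene Gm5607. Distances below are from a peak's midpoint to the nearest annotated start site, with negative values upstream. Most genes had 1 to 3 annotated start sites and Pax6 had 29.

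Sites bound by several TFs were searched for short sequences of the kind these TFs are known to bind. The words searched on both strands were, for SOX proteins, ACAA followed by AA, AG, TA or TG, and further ATGCAAAT and ATGCATAT (octamers) for POU proteins, GGATTA for OTX2 and CAGCAGG for ZIC2. The sequences below are from mm9, plus strand, with these words in capitals. They show the Sox21 site with the highest-scoring SOX2 peak among the 9 genes (chr14:118629663-118629862, at 5.55 kb, chosen after its score was seen) and, for 3 other genes, the middle of the site found in the most lists. The latter are at 19.2 kb from Neurog2 in 7 lists (chr3:127355155-127355354), -16.3 kb from Olig2 in 6 lists (chr16:91209351-91209550) and in an intron of Nes at 3.36 kb in 6 lists (chr3:87778309-87778508).
Sox21, 5.55 kb: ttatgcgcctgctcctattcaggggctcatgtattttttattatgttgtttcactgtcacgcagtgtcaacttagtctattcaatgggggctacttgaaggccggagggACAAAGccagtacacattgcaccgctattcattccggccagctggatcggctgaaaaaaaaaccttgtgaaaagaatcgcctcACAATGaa
Neurog2, 19.2 kb: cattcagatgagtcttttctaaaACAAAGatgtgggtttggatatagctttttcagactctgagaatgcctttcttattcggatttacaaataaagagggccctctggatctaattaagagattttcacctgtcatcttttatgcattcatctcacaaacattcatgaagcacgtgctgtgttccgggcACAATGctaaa
Olig2, -16.3 kb: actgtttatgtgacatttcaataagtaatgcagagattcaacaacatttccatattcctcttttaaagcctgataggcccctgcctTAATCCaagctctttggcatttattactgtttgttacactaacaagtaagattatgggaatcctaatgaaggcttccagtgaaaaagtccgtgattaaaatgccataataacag
Nes, 3.36 kb: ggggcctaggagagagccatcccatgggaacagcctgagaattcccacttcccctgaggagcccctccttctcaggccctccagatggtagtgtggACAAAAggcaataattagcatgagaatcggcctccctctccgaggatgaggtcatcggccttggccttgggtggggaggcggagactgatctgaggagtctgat
The Sox21 site held ACAAAG and ACAATG, as did the Neurog2 site. The Nes site held ACAAAA. At Olig2, where OTX2, POU5F1 and POU3F1 peaks overlapped and no SOX2 peak was present, the capitals mark GGATTA read on the minus strand. None of the 4 windows contained an octamer word. Only exact words were searched, whereas the paper allows base deviations from the octamer, so octamer-like sites may be present. Of the sites found in the most lists at 2 other genes, that of Sox3 at -5.56 kb held ACAAAG and that of Sox1 at 34.7 kb held none of the words. SOX words are common, and 56.8% of windows 1 kb away from the SOX2 peaks of EpiSCs held at least 1.

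ZIC2 gave the most peaks of the 5 TFs at 7 of the 9 genes in EpiSCs, the exceptions being Sox21 and Neurog2. In EpiSCs, ZIC2 had 109 peaks, OTX2 68, SOX2 34, POU5F1 28 and POU3F1 18 at the 9 genes. In activin-free cells the numbers were 95, 58, 35, 37 and 15. Nes held the most ZIC2 peaks (23 and 21 in EpiSC and activin-free lists) and the most OTX2 peaks of EpiSCs (13). Neurog2 held 7 and 10 SOX2 peaks and Pax6 7 and 6, the largest numbers for that TF. Sox21 had the most POU5F1 peaks, 8 and 9.

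**Figure D1:**
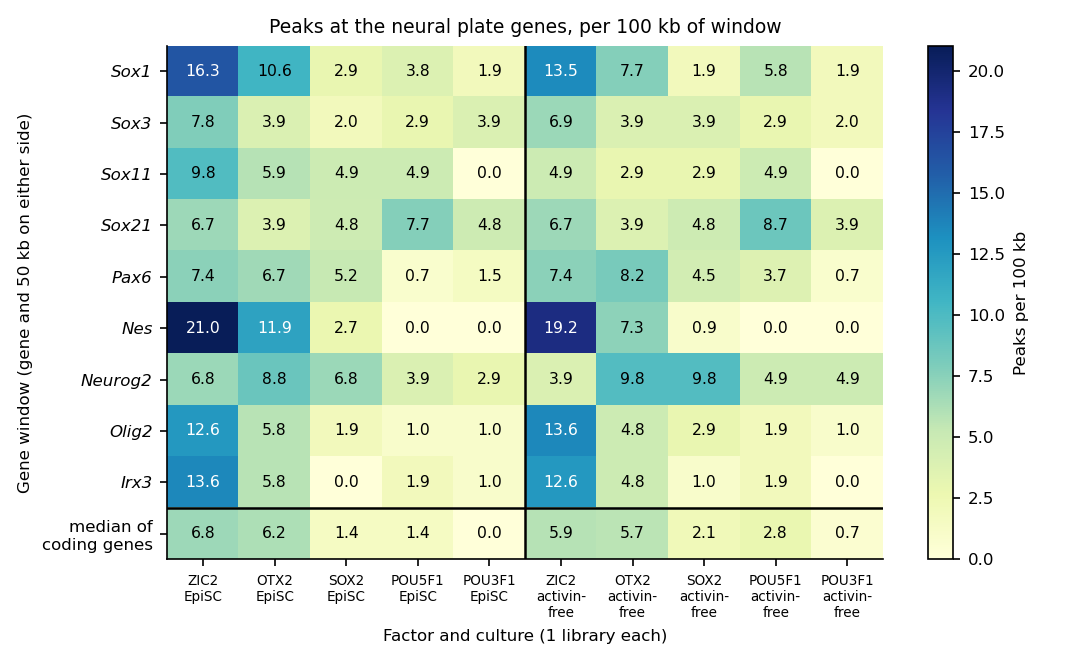
Peaks per 100 kb of window (gene and 50 kb on either side) for each gene in rows and each TF and culture in columns, from 1 library each, with the median of all coding genes in the bottom row. Nes stands out in the ZIC2 columns (21.0 and 19.2) and has no peak in any POU5F1 or POU3F1 column, while Sox21 leads the POU5F1 columns (7.71 and 8.67).

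The presence of a peak was close to the background of all coding genes for most TFs. ZIC2 peaks were present at 9 of 9 genes in both cultures (93.1% and 92.3% of all coding genes) and OTX2 peaks at 9 and 9 (93.3% and 95.6%). SOX2 peaks were present at 8 genes in EpiSCs and 9 in activin-free cells (75% and 85.6% of coding genes), with Irx3 lacking SOX2 peaks in EpiSCs. POU5F1 peaks were present at 8 and 8 genes (77.3% and 89.5%), with none at Nes. POU3F1 peaks were present at 7 genes in EpiSCs (47.8%), with none at Sox11 or Nes, and at 6 in activin-free cells (53%), where Irx3 lacked them too.

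Peak density was then compared with that over all coding genes. Over the 9 windows, SOX2 density in EpiSCs was 1.65 times that over the windows of all coding genes (95% interval 1.14 to 2.30), and ZIC2 density was 1.28 times (1.05 to 1.54). The ratios for OTX2, 1.09 (0.850 to 1.39), POU5F1, 1.42 (0.947 to 2.06), and POU3F1, 0.709 (0.420 to 1.12), had intervals that included 1. In activin-free cells the ratio for SOX2 was 1.24 (0.861 to 1.72), that for ZIC2 1.23 (0.994 to 1.50), that for OTX2 1.00 (0.761 to 1.30), that for POU5F1 0.964 (0.679 to 1.33) and that for POU3F1 0.650 (0.364 to 1.07). Every one of these intervals included 1. Individual genes above the median of coding genes numbered 8 of 9 for both ZIC2 and SOX2, 6 for POU5F1 and 4 for OTX2 in EpiSCs, whereas the median for POU3F1 was 0. With windows of 20 kb on either side, ZIC2 density was 1.99 times that of coding genes in EpiSCs and 2.11 times in activin-free cells. The EpiSC interval for ZIC2 included 1 without Nes (1.14, 0.909 to 1.4) and with flanks of 100 kb (1.06, 0.912 to 1.23). That for SOX2 included 1 with flanks of 100 kb (1.22, 0.896 to 1.62) and among peaks with scores of at least 100 (1.62, 0.909 to 2.68). With flanks of 20 kb the EpiSC ratio for SOX2 was 2.25 (1.41 to 3.41). The activin-free intervals for SOX2 and ZIC2 lay above 1 with flanks of 20 kb, scores of at least 100 or the 50000 highest-scoring peaks. For SOX2 these were 1.68 (1.05 to 2.54), 1.67 (1.07 to 2.49) and 1.66 (1.09 to 2.44). Both included 1 with flanks of 100 kb, with adjacent peaks merged and without Nes.

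The single genes differed widely within each TF. For SOX2 in EpiSCs, Neurog2 lay at percentile 96.7 of all coding genes by peaks per 100 kb, Pax6 at 92.1, Sox11 at 90.2 and Sox21 at 89.7, whereas Irx3, with no peak, lay at 12.5. In activin-free cells Neurog2 lay at 98.5 and Nes, with 1 SOX2 peak, at 24.0. For POU5F1, Sox21 lay at percentile 98.9 in EpiSCs and 92.3 in activin-free cells. The ZIC2 percentiles of EpiSCs ran only from 49.8 at Sox21 to 85.8 at Nes. Across the 9 genes, windows richer in G and C had more ZIC2 peaks (Spearman's rho 0.733 and 0.767 in EpiSC and activin-free lists) and fewer SOX2 peaks (-0.567 and -0.817). These are descriptions over 9 windows that share their libraries, and the part of base composition in the peak numbers was not tested.

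ZIC2 peaks lay over the start site of every gene, defined as a midpoint within 1 kb of an annotated start. This held for 9 of 9 genes in EpiSCs and 9 of 9 in activin-free cells, against 67.6% and 66.6% of all coding genes. The EpiSC and activin-free scores of the start site peak were 2563.77 and 3061.85 at Irx3, 2165.22 and 2099.29 at Nes, and 1628.93 and 975.29 at Sox21. At Neurog2 they were 1327.14 and 1742.52, at Sox11 1316.66 and 1668.31, and at Sox3 1047.05 and 1377.64. Sox1 (808.9 and 1245.39) and Olig2 (551.46 and 539.11) had lower scores. Pax6 differed from the others, with 6 and 7 weaker ZIC2 peaks spread over its many start sites, the highest at 303.82 and 274.69. Relative to EpiSCs, the score fell most at Sox21, where the activin-free list split the wide EpiSC peak and gave its downstream portion a peak of its own (282.96), and rose most at Sox1.

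OTX2 start site peaks were fewer, with the highest scores at Pax6. In EpiSCs they were present at 4 genes, Sox1 (85.68), Pax6 (up to 502.04), Nes (129.92) and Olig2 (51.89), against 29.1% of coding genes. In activin-free cells Pax6 alone kept OTX2 peaks there (up to 380.35), against 24.2% of coding genes. SOX2 had a start site peak at Pax6 alone in both cultures (148.34 and 72.88), against 8.05% and 12.8% of coding genes. Neither POU5F1 (0 of 9 genes in both cultures, against 4.74% and 9.09%) nor POU3F1 (0 of 9, against 5.58% and 6.21%) had any there. Pax6 has 29 annotated start sites, more than any of the other genes, so peaks had more places to count. The part of this in its OTX2 and SOX2 start site peaks was not tested. Median distances from a start site in EpiSCs ran from 11.3 kb for ZIC2 to 21.3 kb for POU5F1. Peaks between genes made up 55.0% of the ZIC2, 52.9% of the SOX2 and 75.0% of the POU5F1 peaks of EpiSCs.

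**Figure D2:**
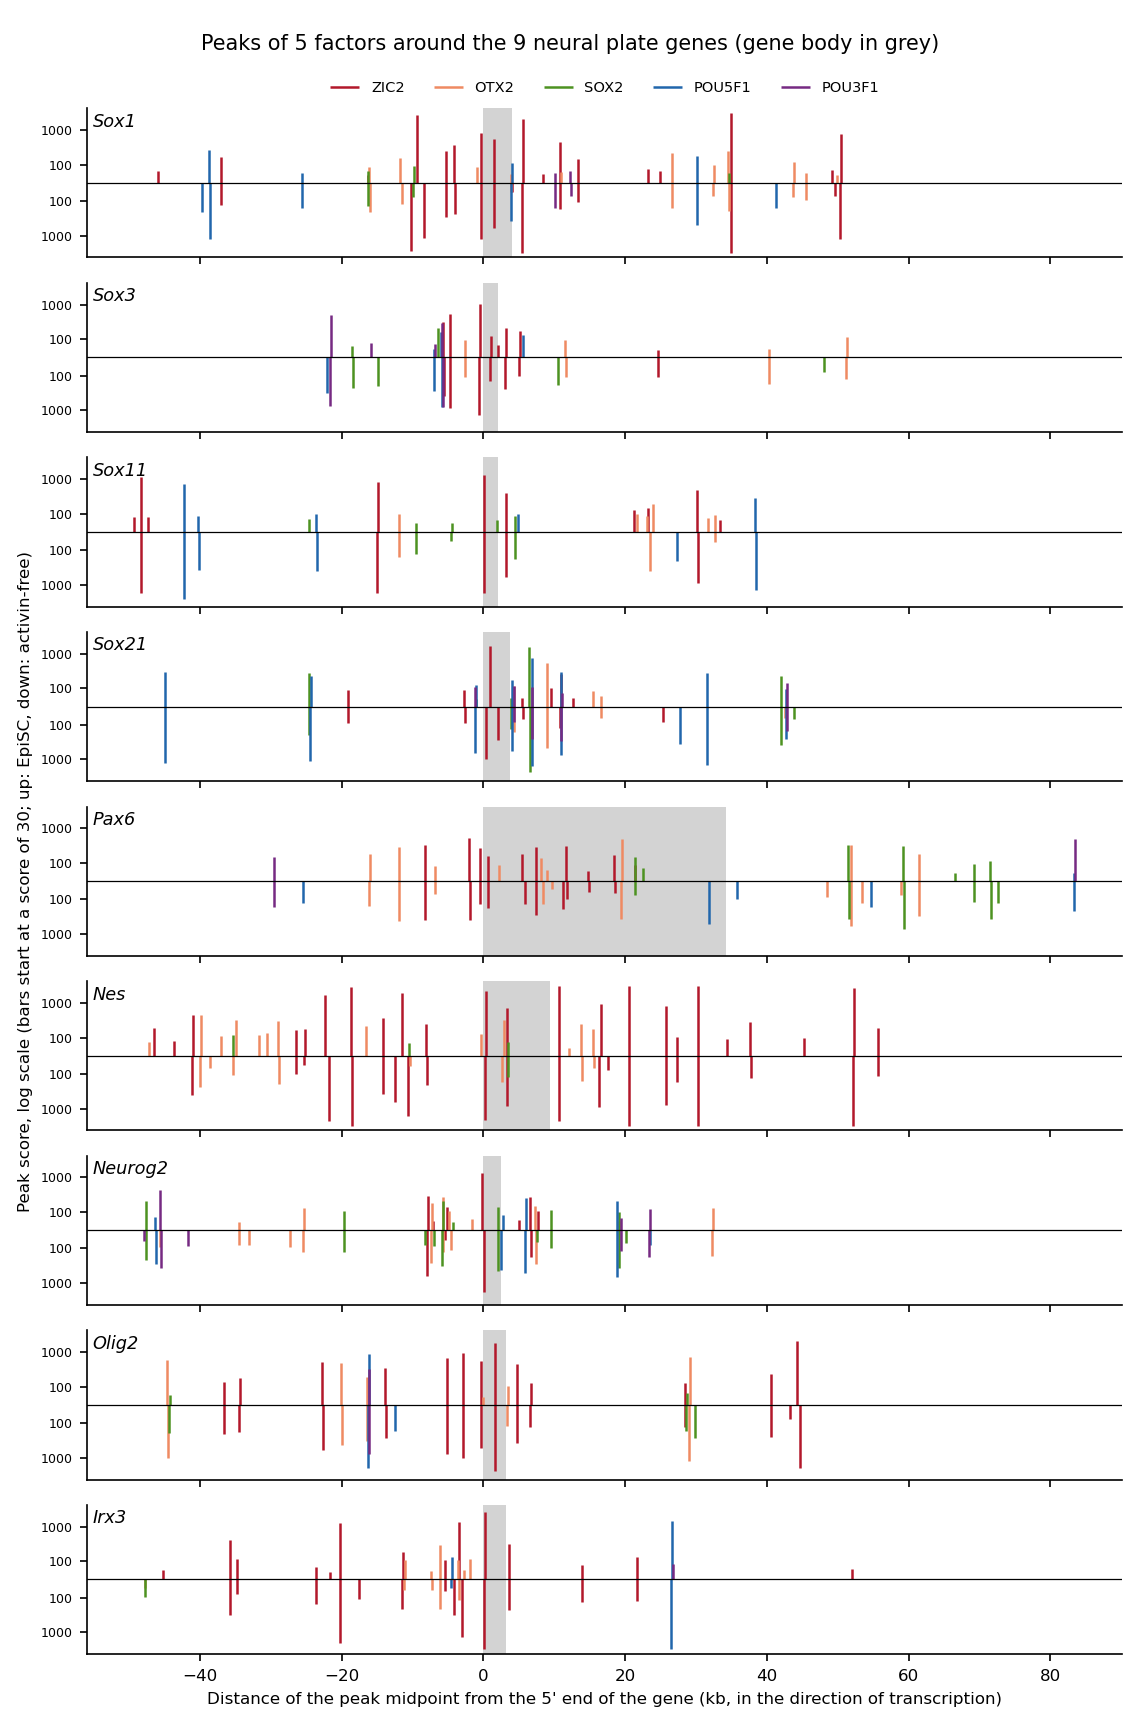
Score of each peak (vertical, log scale, EpiSC peaks upward and activin-free peaks downward) by its distance from the 5' end of the gene in kb in the direction of transcription, for the 9 genes with the gene body in grey and a colour for each TF. ZIC2 bars stand at the 5' end of every gene, Nes shows ZIC2, OTX2 and SOX2 only, and the tall SOX2 and POU5F1 bars of Sox21 stand downstream of the gene.

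Sox21, whose product is a repressor related to SOX2, had the highest SOX2 scores and the most POU5F1 peaks of the 9 genes. Its counts were 7 ZIC2, 4 OTX2, 5 SOX2, 8 POU5F1 and 5 POU3F1 peaks in EpiSCs, and 7, 4, 5, 9 and 4 in activin-free cells. A SOX2 peak 5.52 kb downstream of the start had a score of 1566.4 in EpiSCs, rank 6 of the 63678 SOX2 peaks on the chromosomes used, and one in activin-free cells at 5.58 kb had 2243.65, rank 6 of 87783. This is the site whose sequence is printed first. POU5F1 peaks with scores of 751.08 and 1552.98 and POU3F1 peaks with 111.36 and 265.63 overlapped it. In the EpiSC lists 5 of the 5 SOX2 peaks at Sox21 overlapped a POU5F1 peak and 4 overlapped a POU3F1 peak. In activin-free cells the numbers were 4 and 3 of 5.

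Another Sox21 site, at 41.4 kb, held SOX2 (224.94 and 389.89), POU5F1 (94.59 and 251.6) and POU3F1 (148.05 and 151.21) in both cultures and OTX2 in activin-free cells alone (64.59). Of the 37 POU5F1 peaks at the 9 genes in activin-free cells, 16 scored at least 500 (43.2%, 28.7 to 59.1%). The share over the whole list was 27.8%, and 7 of the 16 were at Sox21. At 9.90 and 9.98 kb ZIC2 (260.95 and 121.18), POU5F1 (297.97 and 759.39) and POU3F1 (75.8 and 302.66) overlapped in both cultures. At -1.22 kb SOX2 (50.29), POU5F1 (126.74) and POU3F1 (109.42) overlapped in EpiSCs. The highest OTX2 scores at Sox21 were at 8.16 kb, 557.83 and 482.13.

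Sox1, a marker of neural commitment, was bound mainly by ZIC2. It had 17 ZIC2, 11 OTX2, 3 SOX2, 4 POU5F1 and 2 POU3F1 peaks in EpiSCs, and 14, 8, 2, 6 and 2 in activin-free cells. ZIC2 peaks of score 3100 lay at 35.2 kb in EpiSCs and at 35.1 and 5.70 kb in activin-free cells, the last against 2096.5 in EpiSCs. At 34.7 kb, in an exon of Gm5607, ZIC2, OTX2 (247.2) and SOX2 (56.64) overlapped in EpiSCs, and the SOX2 peak was not in the activin-free list. The start of Gm5607 itself upstream of Sox1 had ZIC2 scores of 2725.26 and 2839.62 with SOX2 scores of 93.05 and 75.63. ZIC2 (51.43), OTX2 (87.19) and SOX2 (64.42) overlapped at -16.2 kb in EpiSCs, and ZIC2 (54.69), OTX2 (54.39) and POU5F1 (384.06) at 4.14 kb in activin-free cells. No SOX2 peak at Sox1 exceeded 138.43.

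Sox3, which is already expressed in the epiblast, had a cluster of SOX2, POU and ZIC2 peaks upstream of its start. Its counts were 8 ZIC2, 4 OTX2, 2 SOX2, 3 POU5F1 and 4 POU3F1 peaks in EpiSCs, and 7, 4, 4, 3 and 2 in activin-free cells. Overlapping peaks clustered between -5.56 and -6.84 kb. There POU5F1 scored 166.4 in EpiSCs and 800.9 in activin-free cells, POU3F1 303.2 and 803.17, and ZIC2 320.03 and 399.49. The SOX2 peak of this cluster (212.76) was present in EpiSCs and absent from the activin-free list, whereas activin-free cells had SOX2 peaks at -14.9 kb (197.58), 10.3 kb (189.11) and 47.8 kb (76.8) that the EpiSC list lacked. A further POU3F1 peak at -21.7 kb scored 512.05 and 738.34.

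Sox11 showed no POU3F1 peak in either culture. It had 10 ZIC2, 6 OTX2, 5 SOX2 and 5 POU5F1 peaks in EpiSCs, and 5, 3, 3 and 5 in activin-free cells. As at Pax6 and Irx3, no base was covered by peaks of 3 or more TFs, although the SOX2 peak of EpiSCs at 4.44 kb overlapped a ZIC2 peak and, elsewhere, a POU5F1 peak. The 5 ZIC2 peaks present in both cultures all scored higher in activin-free cells, by 1.27 to 2.06 times, as did 57.1% of all matched ZIC2 peaks. The 5 ZIC2 peaks found at Sox11 in EpiSCs alone had scores of at most 147.87. Its POU5F1 peaks at -42.4 kb (715.87 and 2480.78) and at 38.2 kb (289.54 and 1432.45) were the highest at the gene, and both lay on runs of alternating purines and pyrimidines described below. SOX2 scores at Sox11 stayed low, at most 86.93 in EpiSCs and 184.81 in activin-free cells.

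Pax6, a TF of eye and forebrain development, had 5 of its 7 SOX2 peaks of EpiSCs and 5 of its 6 of activin-free cells inside introns of the neighbouring gene Elp4, which are known to contain Pax6 enhancers. Its counts were 10 ZIC2, 9 OTX2, 7 SOX2, 1 POU5F1 and 2 POU3F1 peaks in EpiSCs, and 10, 11, 6, 5 and 1 in activin-free cells. The lower POU3F1 count of activin-free cells reflects the window edge. The EpiSC POU3F1 peak at 59.6 kb (489.51) overlapped an activin-free peak of 3032.36 whose midpoint lay outside the window. SOX2 scored 321.37 and 361.52 at 27.9 kb, 304.47 and 727.52 at 35.6 kb, 95.97 and 123.02 at 45.6 kb, and 112.87 and 373.92 at 47.9 kb. The peak at 35.7 kb ranked 691 of 87783 in the activin-free list, and all 4 were higher there, as were 71.6% of all matched SOX2 peaks. OTX2 overlapped the first of these, at 28.4 kb, with 328.35 in EpiSCs and 587.39 in activin-free cells. The highest OTX2 score of EpiSCs at Pax6 (502.04) was at a start site, and a further OTX2 peak at -11.8 kb, in an intron of Pax6os1, scored 291.25 and 413.96. POU5F1 had a peak of 518.5 over an untranslated exon of Pax6, 8.18 kb from a start, in activin-free cells alone. The highest ZIC2 score at Pax6 was 509.39, at -1.82 kb.

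At Irx3, ZIC2 predominated and SOX2 was all but missing. There were 14 ZIC2, 6 OTX2, 0 SOX2, 2 POU5F1 and 1 POU3F1 peaks in EpiSCs, and 13, 5, 1, 2 and 0 in activin-free cells. Next to the start site peak, ZIC2 scored 1330.55 and 1367.07 at -3.27 and -2.80 kb, in exons of D230002A01Rik, and 1248.29 and 1971.34 at -19.9 and -20.0 kb. The single SOX2 peak, of activin-free cells, scored 95.25 at -47.7 kb. A POU5F1 peak at 26.5 kb scored 1459.48 in EpiSCs and 3100 in activin-free cells. The other POU5F1 peak, at -4.58 kb, went from 132.11 to 53.67 and was the only one of 26 matched POU5F1 peaks with a lower score in activin-free cells.

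Olig2, known for motor neuron and oligodendrocyte progenitors, combined strong ZIC2 binding with 2 distant sites where peaks of 3 TFs overlapped. Its counts were 13 ZIC2, 6 OTX2, 2 SOX2, 1 POU5F1 and 1 POU3F1 peaks in EpiSCs, and 14, 5, 3, 2 and 1 in activin-free cells. At -16.3 kb the EpiSC scores were 193.88 for OTX2, 905.11 for POU5F1 and 329.94 for POU3F1, and the activin-free scores were 335.78, 2030.42 and 804.54. At 29.2 kb OTX2 scored 708.4 and 1223.44, the latter rank 616 of 113837, with ZIC2 (132.01 and 134.16) and SOX2 (66.37 and 164.69) overlapping. Other OTX2 peaks found in both cultures at Olig2 included ones of 584.9 and 1012.79 and of 479.22 and 419.38. ZIC2 scored 1817.51 and 2393.1 over an untranslated exon of Olig2, and 2012.8 and 1983.37 at the start of Olig1, the neighbouring paralogue. All 13 ZIC2 peaks of EpiSCs were also found in activin-free cells.

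Neurog2, which drives neuronal differentiation, had the most sites shared by 3 or more TFs after Sox21. Its counts were 7 ZIC2, 9 OTX2, 7 SOX2, 4 POU5F1 and 3 POU3F1 peaks in EpiSCs, and 4, 10, 10, 5 and 5 in activin-free cells. At 19.2 kb, EpiSCs had OTX2 (54.78), SOX2 (103.55), POU5F1 (203.22) and POU3F1 (66.17) peaks, and activin-free cells had the last 3 (363.69, 669.56 and 122.12). At -5.46 and -5.35 kb ZIC2, OTX2 and SOX2 overlapped in both cultures, where ZIC2 went from 141.05 to 55.87, OTX2 from 267.07 to 124.91 and SOX2 from 210.29 to 319.11. In activin-free cells OTX2 (91.32), POU5F1 (280.25) and POU3F1 (356.03) overlapped at -45.9 kb, and ZIC2 (171.8), OTX2 (272.44) and SOX2 (63.99) at 7.38 kb. The strongest SOX2 peak of activin-free cells lay over an untranslated exon at 2.07 kb (441.53 against 142.21 in EpiSCs). OTX2 overlapped 6 of the 7 ZIC2 peaks at Neurog2 in EpiSCs.

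Nes lay in the window with the densest ZIC2 binding and without any POU5F1 or POU3F1 peak. It had 23 ZIC2, 13 OTX2 and 3 SOX2 peaks in EpiSCs, and 21, 8 and 1 in activin-free cells. The paper, in contrast, describes both a SOX2 and a POU5F1 peak of EpiSCs at Nes30, an intronic enhancer of Nes. The absence of POU5F1 here therefore refers to the peak lists alone. ZIC2 peaks covered 52.5 kb of its 109 kb window in EpiSCs. Scores of at least 500 were reached by 11 of 23 and 12 of 21 of them, against 21.2% and 27.2% of all ZIC2 peaks. The highest ZIC2 score at Nes, 3152.34, belonged to an EpiSC peak 8944 bp wide centred 10.9 kb from the start. In the intron at 3.36 kb, ZIC2 (733.62 and 847.96), OTX2 (321.62 and 176.09) and SOX2 (72.7 and 125.18) overlapped in both cultures. The Nes window holds the start sites of 6 other coding genes, more than any other window, so part of its binding lay at neighbours. ZIC2 peaks stood at the starts of Crabp2, a retinoic acid binding protein (2863.36 and 3100), and Hapln2, a matrix link protein (2715.19 and 3100), both named after their values were seen, as was Olig1. Rrnad1 and Isg20l2 shared ZIC2 (437.59 and 415.27) and OTX2 (436.78 and 236.79) peaks at their common start region. All 6 OTX2 peaks matched between cultures were lower in activin-free cells, with ratios from 0.341 to 0.667 and a median of 0.545. Over the whole list 71.4% of matched OTX2 peaks were higher there.

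Peaks of different TFs often coincided at these genes. Of the 20 directions of overlap among 5 TFs, the interval at the 9 genes lay above the share of the whole list in 12 in EpiSCs and 6 in activin-free cells, and below it in none of either culture. In EpiSCs, ZIC2 peaks overlapped 45.6% of OTX2 peaks at the 9 genes (31 of 68, 34.3 to 57.3%), against 17.8% of all OTX2 peaks and 19.5% of those in the windows of coding genes. They overlapped 38.2% of SOX2 peaks (13 of 34, 23.9 to 55.0%), against 5.27% and 7.21%. OTX2 peaks overlapped 32.4% of SOX2 peaks (11 of 34), against 12.3% and 16.1%. POU5F1 peaks overlapped 29.4% of SOX2 peaks (10 of 34), against 8.00% and 7.95%, and SOX2 peaks overlapped 39.3% of POU5F1 peaks (11 of 28), against 8.02% and 7.96%. POU3F1 peaks overlapped 42.9% of POU5F1 peaks (12 of 28), which did not exceed the 51.7% of all POU5F1 peaks. The 8 directions plotted were chosen after all values were seen. ZIC2 peaks at the 9 genes had a median width of 1012 bp, against 864 bp over the list, and 21.1% of them, against 7.91%, were wider than 2000 bp. The part of peak width in the overlaps was not tested. When 50% of both peaks had to overlap, the whole-list shares lay inside the intervals for ZIC2 by OTX2 (6.42%, 3.15 to 12.7%, against 4.61%), OTX2 by ZIC2 (10.3%, 5.08 to 19.8%, against 5.44%) and SOX2 by OTX2 (11.8%, 4.67 to 26.6%, against 6.14%).

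**Figure D3:**
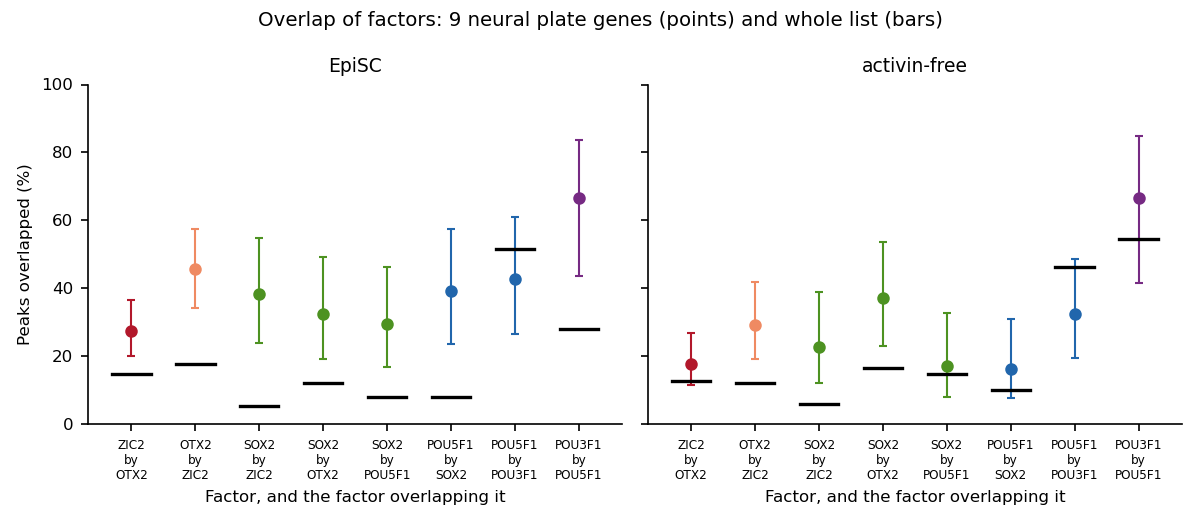
Share of peaks of a TF at the 9 genes overlapped by peaks of a second TF (vertical axis, %), in EpiSCs and activin-free cells, for 8 directions. Points with 95% Wilson intervals are the 9 genes and black bars the whole list, and 7 of the 8 EpiSC points, POU5F1 by POU3F1 excepted, have intervals above the bar.

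The genes contributed unequally to these overlaps. All 3 SOX2 peaks at Sox1, 3 of 7 at Neurog2 and 2 of 3 at Nes overlapped ZIC2 in EpiSCs, and 1 of 7 at Pax6 did. Overlap of SOX2 with POU5F1 was most frequent at Sox21 (5 of 5 SOX2 peaks), with 2 of 5 at Sox11, 2 of 7 at Neurog2 and 1 of 2 at Sox3, and none at Sox1, Pax6, Nes, Olig2 or Irx3. In activin-free cells the shares at the 9 genes were 29.3% for OTX2 by ZIC2 (12.0% of all), 22.9% for SOX2 by ZIC2 (6.09%), 37.1% for SOX2 by OTX2 (16.7%) and 17.1% for SOX2 by POU5F1 (14.7%). Without Sox21, the share of SOX2 peaks overlapped by POU5F1 in EpiSCs was 17.2% (7.6 to 34.5%), an interval that included the 8.00% of the whole list. In activin-free cells without Sox21 this share fell to 6.67%, and that of POU5F1 peaks overlapped by SOX2 fell from 16.2% to 7.14%. Among peaks with scores of at least 100 in EpiSCs, ZIC2 overlapped 13.3% of 15 SOX2 peaks (3.74 to 37.9%, against 3.69% of all). It overlapped 50% of 40 OTX2 peaks (35.2 to 64.8%, against 16.8% of all).

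Most peaks at the genes were found in both cultures. In the EpiSC lists, 78.9% of ZIC2 peaks (86 of 109), 73.5% of OTX2 (50 of 68), 70.6% of SOX2 (24 of 34), 92.9% of POU5F1 (26 of 28) and 77.8% of POU3F1 peaks (14 of 18) overlapped an activin-free peak of the same TF. Over the whole lists the shares were 78.9%, 78.1%, 77.6%, 98.3% and 82.6%, all within the intervals of the 9 genes except that of POU5F1 (77.4 to 98.0%). In the opposite direction, 73.0% of activin-free POU5F1 peaks at the genes (27 of 37, 57.0 to 84.6%) were found in EpiSCs, against 47.1% of all. For OTX2 the share was 81.0% (47 of 58, 69.1 to 89.1%), against 67.5% of all, and for SOX2 68.6% (24 of 35, 52.0 to 81.4%), against 55.9%. Peaks of a single culture had lower median scores than those found in both, in each of the 10 lists. Of the 23 ZIC2 peaks at the genes found in EpiSCs alone, 19 scored under 100, against 8 of the 86 found in both. Of the 10 POU5F1 peaks found in activin-free cells alone, however, 2 scored under 100, and their median was 169, against 559 for the 27 found in both. The highest-scoring peaks found in activin-free cells alone were the POU5F1 peak in Pax6 (518.5) and, for SOX2, a peak at 29.8 kb from Olig2 (270.5). Nes had 7 OTX2 peaks in EpiSCs alone, the highest at 216.57.

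The scores of matched peaks moved differently for each TF. At the 9 genes the median ratio of the activin-free to the EpiSC score was 3.65 for POU5F1 (26 peaks, 25 higher), 1.73 for SOX2 (24 peaks, 20 higher), 1.64 for POU3F1 (14 peaks, 12 higher), 1.09 for OTX2 (50 peaks, 27 higher) and 1.03 for ZIC2 (86 peaks, 47 higher). Over all matched peaks the medians were 3.83, 1.35, 1.13, 1.35 and 1.09. The POU5F1 increase was thus shared by the whole list, in which 98.4% of matched peaks scored higher in the activin-free library. For the other TFs this share of the whole list was 71.6% for SOX2, 59.2% for POU3F1, 71.4% for OTX2 and 57.1% for ZIC2. Since scores grow with read depth, which is unknown, the depth of the libraries and the culture cannot be told apart. Against this background, median ratios for SOX2 were 1.28 at Pax6 (5 peaks), 1.37 at Neurog2 (6), 1.58 at Sox21 (4) and 2.13 at Sox11 (3). They were 1.48 at Sox1 and 2.96 at Olig2, from 2 peaks each, and 1.72 at Nes and 3.46 at Sox3, from 1 each. For OTX2 they ran from 0.545 at Nes (6 peaks) and 0.791 at Sox1 (8) to 1.73 at Olig2 (5) and 1.80 at Sox11 (4). At Sox11 the EpiSC OTX2 peaks of 197.61 and 85.92 were matched to the same activin-free peak, of 394.

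**Figure D4:**
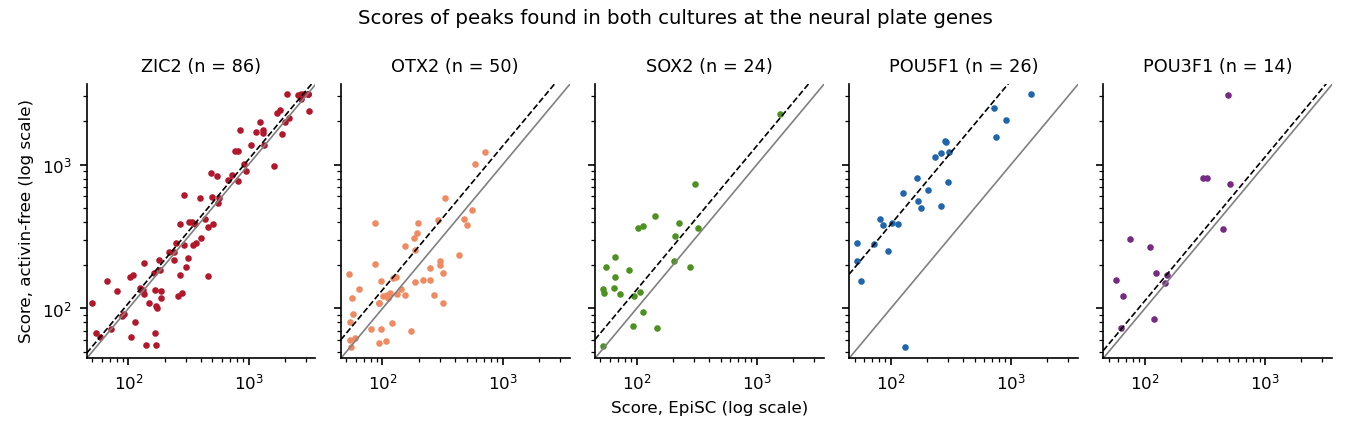
EpiSC score (horizontal, log scale) against activin-free score (vertical, log scale) of each peak at the 9 genes found in both cultures, with a panel for each TF, a grey line of equality and a dashed line at the median ratio over the whole list. ZIC2 points lie along equality, 25 of the 26 POU5F1 points lie above it, and 20 of the 24 SOX2 points do. Over the whole lists 98.4% of matched POU5F1 and 71.6% of matched SOX2 peaks lie above equality.

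Within 100 bp of the midpoint, peaks at the genes held the words of their own TF about as often as the lists did. A SOX word was found in 91.2% of SOX2 peaks in EpiSCs (31 of 34, 77.0 to 97.0%) and 71.4% in activin-free cells (25 of 35, 54.9 to 83.7%), against 85.9% and 85.1% of all SOX2 peaks and 56.8% of windows of equal length 1 kb away in the EpiSC list. The activin-free share lay below that of the list, outside its interval. An octamer word was found in 32.1% of POU5F1 peaks in EpiSCs (9 of 28, 17.9 to 50.7%) and in 21.6% in activin-free cells, against 18.6% and 13.6% of all and 3.27% of the distant windows of EpiSCs. GGATTA was found in 25.0% of OTX2 peaks of EpiSCs (23.6% of all, 9.02% of distant windows) and CAGCAGG in 20.2% of ZIC2 peaks (19.1% of all, 6.35% of distant windows). POU3F1 peaks held an octamer word in 1 of 18 (8.84% of all).

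Several of the strongest POU5F1 peaks lay on runs of at least 20 bp of alternating purines and pyrimidines such as repeated TG. Such runs occurred within 100 bp of the midpoint in 8 of 28 POU5F1 peaks in EpiSCs (28.6%, against 29.6% of all POU5F1 peaks and 4.41% of distant windows) and in 10 of 37 in activin-free cells (27.0%, against 21.5% of all). For ZIC2, SOX2 and OTX2 in EpiSCs the numbers were 0 of 109, 0 of 34 and 1 of 68. The highest POU5F1 peaks at Irx3 and Sox11 illustrate them, with the longest run in capitals, in mm9, plus strand, at chr8:94298956-94299105 and chr12:28069949-28070098. They were chosen after their scores were seen.
Irx3, 26.5 kb: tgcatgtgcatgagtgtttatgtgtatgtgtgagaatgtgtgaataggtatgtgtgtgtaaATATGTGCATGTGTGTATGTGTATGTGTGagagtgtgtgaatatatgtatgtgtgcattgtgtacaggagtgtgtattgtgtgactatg
Sox11, -42.5 kb: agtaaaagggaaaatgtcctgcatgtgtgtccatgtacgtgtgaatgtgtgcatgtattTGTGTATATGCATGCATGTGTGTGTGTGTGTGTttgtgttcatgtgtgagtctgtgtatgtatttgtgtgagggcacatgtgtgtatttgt
The run at Irx3 was 29 bp long and that at Sox11 33 bp. The latter contains the octamer word ATGCATAT, read on the minus strand. An octamer word lay within 100 bp of the midpoint in 3 of the 8 POU5F1 peaks with a run in EpiSCs, against 6 of the 20 others, and in 2 of 10 against 6 of 27 in activin-free cells. The word ATGCATAT itself alternates purines and pyrimidines, so it can be part of a run and these counts are not independent of the runs. In EpiSCs the median score of POU5F1 peaks with such a run was 294, against 134 for the others, and in activin-free cells 520 against 393, with wide ranges in all (57.03 to 1459.48 and 131.21 to 3100 with a run). The Sox21 peaks at 5.75 and 5.81 kb and the Olig2 peaks at -16.3 and -16.4 kb, also strong for POU5F1, had none. The part of these repeats in the peak scores was not tested.

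Other developmental genes had lower median SOX2 densities and higher ZIC2 densities than the 9 genes in EpiSCs. Among the 9 genes, the median SOX2 density in EpiSCs was 2.88 peaks per 100 kb, against 0.980 in 21 relatives and other early neural genes, 0.913 in 9 forebrain and eye field regulators, 1.16 in 9 primitive streak and endoderm genes and 1.44 over all coding genes. Members above the coding median numbered 8 of 9, against 9 of 21, 4 of 9 and 4 of 9. In activin-free cells the medians were 2.94 for the 9 genes, 1.96, 0.846 and 1.85 for the same lists and 2.09 for coding genes. For ZIC2 the EpiSC median of the 9 genes, 9.80, was below those of the relatives (10.4), forebrain regulators (10.3) and streak genes (12.1), and above the 6.80 of all coding genes. Start sites with ZIC2 peaks numbered 19 of 21, 8 of 9 and 8 of 9 in the comparison lists of EpiSCs. No test was made of these differences.

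The genes most like the group in their peak densities over all 10 lists were Ninl, Stx18, Abca4, 8030462N17Rik and Gm10313. Likeness was the distance between a gene's 10 densities and the means of the 9 genes, each as log2 of peaks per 100 kb plus 1, and ran from 0.686 for Ninl to 0.787 for Gm10313. The 9 genes themselves were farther from their own mean, from 1.23 at Olig2 to 3.72 at Nes. Nes and Sox21 marked the extremes, with ZIC2 and no POU peaks at Nes, and POU5F1, POU3F1 and SOX2 peaks together at Sox21.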

How the data were processed

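Of the 11 samples, the 10 ChIP libraries each had a list of peaks, and the input control without ChIP was not analysed here beyond its use by the authors as reference. Per the study's methods, reads were aligned to mm9 with Bowtie2 and peaks were called for each library with MACS against the input. The only input sample came from the culture with activin, so the samples hold no input matched to the activin-free libraries. The deposited value of a peak is a score, taken as the MACS score, and the authors' lists hold no counts, so read depth is unknown. Its lowest value is 50, so weaker binding is missing from the lists.

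Peaks on chromosomes 1 to 19, X and Y were used. Gene positions came from the GENCODE annotation of mm9. Sox1, not found there by name, was placed by an exact and unique match of its RefSeq promoter. Peaks were assigned by midpoint (gene and 50 kb on either side) and overlapped from 1 bp. Words were searched within 100 bp of midpoints and in windows centred 1 kb away. Peaks to describe were taken from the highest-scoring peaks of each TF, sites where a base was covered by peaks of 3 or more TFs of a culture, peaks within 1 kb of a start site, and neighbouring genes with such peaks in 3 or more lists. Not every site that met these rules is reported here. The genes and lists were chosen with earlier results of these data known. Alternatives were other flanks, score limits, overlap rules, merging of adjacent peaks and leaving out Nes or Sox21. Steps were tested on simulated data. Python 3.11.15, numpy 2.4.6, scipy 1.17.1, pandas 2.3.3, pysam 0.24.0 and matplotlib 3.10.9 were used.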

Additional observations from a re-analysis of the deposited data

How the results depend on the processing

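Of 310 values recomputed under another setting, 63 moved beyond the counting interval or limit set for them. The cause was not tested. Leaving out Nes or Sox21 was chosen after seeing the data. No paired analysis was possible because each TF had 1 library per culture and no replicate numbers. Peak density relative to coding genes was 1.99 for ZIC2 and 1.59 for OTX2 in EpiSCs and 2.11 for ZIC2 in activin-free cells with flanks of 20 kb. With flanks of 100 kb it was 0.968 for ZIC2 and 1.16 for POU3F1, and among the 50000 peaks highest by score 1.49 for POU5F1, all in activin-free cells. The share of peaks found in the other culture is given here with that of the whole list under the same setting in parentheses. With an overlap of 50% of both peaks it was 82.1% for activin-free ZIC2 (82.9%). With a score of at least 100 it was 89.0% for EpiSC ZIC2 (82.4%) and 45.8% for activin-free SOX2 (51.8%). With the 50000 highest-scoring peaks it was 87.5% for ZIC2 (86.9%), 59.0% for OTX2 (74.0%) and 100% for POU3F1 (86.4%) in EpiSCs. For activin-free POU5F1 it was 87.0% (81.5%). The OTX2 interval, 43.4 to 72.9%, lay below the whole-list share, and the POU3F1 value rests on 5 peaks. With flanks of 20 kb the share was 86.1% for EpiSC ZIC2 and 100% for activin-free POU3F1, the latter from 8 peaks.

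Overlaps between TFs depended on the rule. When 50% of both peaks had to overlap, the whole-list share was inside the interval for ZIC2 by OTX2 (4.61%), OTX2 by ZIC2 (5.44%), SOX2 by OTX2 (6.14%) and POU5F1 by POU3F1 (34.9%) in EpiSCs. The EpiSC shares were 6.42% of ZIC2 by OTX2 and 10.3% of OTX2 by ZIC2 peaks, 5.88%, 11.8% and 14.7% of SOX2 by ZIC2, OTX2 and POU5F1, 17.9% and 25.0% of POU5F1 by SOX2 and POU3F1, and 38.9% of POU3F1 by POU5F1. The activin-free shares were 4.21% of ZIC2 by OTX2, 6.90% of OTX2 by ZIC2, 2.86% and 14.3% of SOX2 by ZIC2 and OTX2, and 18.9% of POU5F1 by POU3F1, against 3.34%, 3.20%, 2.21%, 7.0% and 33.5% of the whole lists, all inside the intervals. With a score of at least 100 in EpiSCs, 13.3% of SOX2 peaks overlapped ZIC2 (3.74 to 37.9%, against 3.69% of the list). SOX2 overlapped 20.0% of POU5F1 peaks (8.07 to 41.6%, against 4.69%). POU3F1 overlapped 25.0% of POU5F1 peaks (11.2 to 46.9%), an interval below the 49.6% of the list. With flanks of 100 kb in EpiSCs, 33.6% of OTX2 peaks overlapped ZIC2, 21.8% of POU5F1 overlapped SOX2 and 40.0% of POU3F1 overlapped POU5F1. Without Sox21, activin-free SOX2 by POU5F1 was 6.67% and POU5F1 by SOX2 7.14%. Genes with a peak within 5 kb of a start site numbered 8 for OTX2 (60.3% and 57.0% of coding genes in EpiSC and activin-free lists) and 1 for POU3F1 (17.4% and 18.6%) in both cultures, 5 and 5 for SOX2 (24.5% and 32.5%), and 5 and 4 for POU5F1 (21.2% and 34.8%). Unknown depth and the score limit of 50 restrict what an absent peak shows, and single libraries leave differences between cultures without an error.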
